A study of Mus musculus with 6 samples.

Results

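The genes described here make, inactivate and sense prostaglandins in cultured mouse chondrocytes, the cells of cartilage. The set holds 10 of the 28812 genes in the deposited table, taken by symbol alone: the phospholipase Pla2g4a, the cyclooxygenases Ptgs1 and Ptgs2, the synthases Ptges, Ptges2, Ptges3 and Ptgis, the breakdown enzyme Hpgd, and the receptors Ptger2 and Ptger4. Poly(A) RNA was sequenced in 6 libraries, in 2 groups of 3. The first group is chondrocytes of wt genotype given IL-1β, an inflammatory cytokine, together with mitochondria, taken from osteocytes according to the series title. The second is chondrocytes of the same genotype given IL-1β and vehicle. All 6 libraries thus share IL-1β and the label OA (osteoarthritis), and no library without IL-1β was analysed here. The comparison asks how transplanted mitochondria change expression in IL-1β-treated chondrocytes. Nothing in the labels tells if replicates came from separate animals or cultures, so p-values measure only the spread between these libraries. In such bulk samples, fewer cells of a type and less RNA per cell cannot be told apart.

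Prostaglandins are lipid signals made from arachidonic acid, which cytosolic phospholipase A2 frees from membranes. Cyclooxygenases turn it into prostaglandin H2, and terminal synthases turn that into prostaglandin E2, prostacyclin and other products, which act on G protein-coupled receptors before 15-hydroxyprostaglandin dehydrogenase inactivates them. In cartilage, IL-1β is a classical inducer of cyclooxygenase-2 and of microsomal prostaglandin E synthase-1, and prostaglandin E2 is a mediator of joint pain and inflammation.

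With mitochondria, transcripts of Ptges, the inducible synthase of prostaglandin E2, were 2.38-fold as abundant as with vehicle, and those of Hpgd, which inactivates prostaglandin E2, were 0.246 of the vehicle level. The other 8 members, Ptgs2 among them, did not pass the test. Thus 1 of 10 members was called higher, where 6.36% of the 17290 genes tested were called higher, and 1 of 10 was called lower, where 8.46% were called lower. A gene was called when its adjusted p was under 0.05 in edgeR's quasi-likelihood test with Benjamini-Hochberg adjustment over all genes tested. All 10 members passed the filter on low counts. Their median log2 fold change was 0.24, against 0.00 over all genes tested, with 6 estimates above 0 and 4 below. A share of 2 in 10 is near the 14.8% called in either direction over all genes, so nothing is read from the number of members called.

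The promoters of 3 members are shown. Ptges and Hpgd are the genes that passed the test, and Ptgs2 is the most abundant member and the best-known target of IL-1β in the set. Each is the RefSeq window on GRCm38.p6 that runs from 250 bases before the annotated start to 50 bases after it, 5′ to 3′ on the strand of the gene. Capitals mark matches, on either strand, to the short motifs searched. The windows are chr1:150099781-150100080 on the plus strand for Ptgs2, chr2:30903248-30903547 on the minus strand for Ptges, and chr8:56294302-56294601 on the plus strand for Hpgd.
Ptgs2: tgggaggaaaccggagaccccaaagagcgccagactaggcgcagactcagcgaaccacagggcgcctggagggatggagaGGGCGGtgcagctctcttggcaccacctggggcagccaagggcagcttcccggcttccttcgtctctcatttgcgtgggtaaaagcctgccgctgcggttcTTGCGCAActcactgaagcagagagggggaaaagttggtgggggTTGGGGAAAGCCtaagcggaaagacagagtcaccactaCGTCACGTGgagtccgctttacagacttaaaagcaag
Ptges: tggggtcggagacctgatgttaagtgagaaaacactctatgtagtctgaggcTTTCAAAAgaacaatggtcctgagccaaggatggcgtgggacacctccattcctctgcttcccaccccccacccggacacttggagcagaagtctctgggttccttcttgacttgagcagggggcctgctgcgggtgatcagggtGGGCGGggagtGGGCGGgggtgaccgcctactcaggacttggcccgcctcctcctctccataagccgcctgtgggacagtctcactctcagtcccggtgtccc
Hpgd: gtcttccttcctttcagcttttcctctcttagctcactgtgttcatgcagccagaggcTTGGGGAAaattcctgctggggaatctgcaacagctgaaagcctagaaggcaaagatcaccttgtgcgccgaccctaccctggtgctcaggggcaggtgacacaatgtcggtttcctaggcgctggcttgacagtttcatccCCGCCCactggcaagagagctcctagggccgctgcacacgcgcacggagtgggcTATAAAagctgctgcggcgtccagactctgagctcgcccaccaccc

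The motifs searched were TGACG (the core of the cAMP response element), CACGTG (E-box), TGANTCA (AP-1), GGNNTTNCC (kappaB-like), TTNNGNAA (C/EBP-like), TGACNNNGC (core of the antioxidant response element), GCGNGGGCG (Egr), TATAAA and GGGCGG (GC box). The GC box was added after the sequences had been seen. In the Ptgs2 window, TGACG on the minus strand, at positions 14 to 18 after the start, overlapped the E-box at 17 to 22. Over the 32851 RefSeq windows searched, which leave out chromosome 18, 20.8% held TGACG and 7.15% held CACGTG. The Ptgs2 window also held a kappaB-like match on the minus strand at -22 to -14, which overlapped a C/EBP-like match at -25 to -18, and the palindrome TTGCGCAA, C/EBP-like on both strands, at -69 to -62. A GC box stood at -170 to -165. Kappa-B-like matches were found in 16% of all windows, C/EBP-like matches in 40.7% and GC boxes in 35.7%.

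The Ptges window held a pair of GC boxes at -53 to -48 and at -42 to -37, and a C/EBP-like match on the minus strand at -198 to -191. The Hpgd window held a C/EBP-like match at -192 to -185, a GC box on the minus strand at -50 to -45 and TATAAA at 5 to 10 after the annotated RefSeq start. TATAAA was found in 13.6% of all windows. The gene coordinates given below for Hpgd begin at 56294585, downstream of that RefSeq start and inside the window, which ends at 56294601. The match at 5 to 10 thus lies upstream of this second start. Which start these cells used was not tested. None of these 3 windows held the AP-1, antioxidant response element or Egr letters, which 7.81%, 12.4% and 5.55% of all windows held. Such matches describe letters in these windows and are not evidence of binding.

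Levels are given as FPKM, a measure per kilobase of transcript and per unit of depth, which the authors computed and which can be set side by side between genes. Fold changes are on the log2 scale, mitochondria over vehicle, with a standard error (SE) taken from the edgeR test on the deposited counts, and adjusted p-values are from that test with Benjamini-Hochberg adjustment. Library totals ran from 63547854 to 66293786 deposited counts, about 4 counts per sequenced fragment. On the first principal component of log2 expression, with 43.7% of the variance, all 3 mitochondria libraries lay on one side (-82.2, -28.2 and -35.2) and the vehicle libraries on the other (30.6, 58.1 and 57.0). Mitochondria replicate 1 stood apart on the second component, with 17.2% of the variance, at 50.9, where the other mitochondria libraries lay at -46.2 and -31.8. Results on the members are therefore also given without it where it changes a call or a direction, or moves the value by over 1.5 times.

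Pla2g4a encodes cytosolic phospholipase A2α, which frees arachidonic acid, and lies at chr1:149829618-149961290 on the minus strand (GRCm38, as are all coordinates below). It had 12.7, 31.4 and 29.3 FPKM in the mitochondria libraries and 27.2, 26.8 and 25.1 FPKM in the vehicle libraries. Mitochondria replicate 1 was far below the other 5 libraries, and the groups overlapped. The log2 fold change was -0.04 ± 0.28 (SE, n = 3 each, edgeR adjusted p = 0.948). Without mitochondria replicate 1 the estimate changed sign to 0.27 and passed the threshold (edgeR adjusted p = 0.0387), so its direction rests on 1 library.

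Ptgs2 encodes cyclooxygenase-2, the inducible enzyme that commits arachidonic acid to prostaglandins, and lies at chr1:150100031-150108227 on the plus strand, 138.74 kb from Pla2g4a. It was the most abundant member in every library, with 168.6, 263.7 and 228.6 FPKM in the mitochondria libraries and 254.2, 147.2 and 150.9 FPKM in the vehicle libraries. Vehicle replicate 1 was as high as the upper mitochondria libraries, and mitochondria replicate 1 lay near the lower vehicle ones. The means were 220.3 ± 48.1 FPKM with mitochondria and 184.1 ± 60.7 FPKM with vehicle (SD, n = 3 each), which ranked it 188 and 209 among all genes. The log2 fold change of 0.32 ± 0.24 did not pass the test (edgeR adjusted p = 0.390). With 1 library left out it ran from 0.17 without mitochondria replicate 2 (edgeR adjusted p = 0.704) to 0.64 without vehicle replicate 1 (edgeR adjusted p = 0.0532). It was 0.18 and 0.19 without vehicle replicates 2 and 3, and 0.48 without mitochondria replicate 1 (edgeR adjusted p = 0.195), and it passed in none of these 6 fits.

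The Ptgs2 transcript has 14 ATTTA pentamers, the core of the AU-rich elements that shorten the life of many cytokine mRNAs, in the 2445 bases of its 3′ UTR. Of 14043 tested coding genes, 2.78% had at least as many. Ptges had 0 in 3106 bases and Hpgd had 4 in 838.

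The only gene annotated between Pla2g4a and Ptgs2 is the antisense transcript Ptgs2os, at chr1:150074873-150099963 on the minus strand. Its 5′ end falls inside the Ptgs2 window shown above, so the window covers the starts of both divergent transcripts. Part of the window lies inside Ptgs2os. Ptgs2os had 1.52, 0.958 and 1.30 FPKM in the mitochondria libraries and 0.978, 0.672 and 0.696 FPKM in the vehicle libraries, a log2 fold change of 0.75 ± 0.24 (edgeR adjusted p = 0.0731). A second gene on the minus strand, Ptgs2os2, lies past the 3′ end at chr1:150159043-150164948 and does not overlap Ptgs2. Ptgs2os2 had 3.93, 2.41 and 4.34 FPKM in the mitochondria libraries and 2.60, 1.48 and 1.83 FPKM in the vehicle libraries, a log2 fold change of 0.92 ± 0.29 (edgeR adjusted p = 0.0655). Neither passed the test, and both were picked for their place near Ptgs2 after their values had been seen.

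Ptgs1 encodes cyclooxygenase-1, the constitutive isoform, and lies at chr2:36230426-36252272 on the plus strand. It had 16.0, 14.3 and 14.3 FPKM in the mitochondria libraries, against 13.5, 9.30 and 11.0 FPKM in the vehicle libraries. The groups did not overlap, yet the log2 fold change of 0.47 ± 0.15 missed the threshold (edgeR adjusted p = 0.0633). It passed under 5 of 17 alternatives, among them DESeq2 (adjusted p = 0.018), upper quartile scaling (edgeR adjusted p = 0.043) and leaving out vehicle replicate 1 (log2 fold change 0.63, edgeR adjusted p = 0.0233).

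Ptgs2 took most of the cyclooxygenase transcripts in all libraries. Its share of the summed FPKM of Ptgs1 and Ptgs2 was 91.3%, 94.9% and 94.1% with mitochondria and 95.0%, 94.1% and 93.2% with vehicle. The groups overlapped, with a difference of -0.64 percentage points between the means. That sign rests on 1 library, since the difference was 0.40 points without mitochondria replicate 1, and it ran from -1.36 to -0.20 points when any other library was left out.

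Ptges encodes microsomal prostaglandin E synthase-1, which acts downstream of cyclooxygenase-2, and lies at chr2:30889471-30903297 on the minus strand. It had 61.8, 48.8 and 49.3 FPKM in the mitochondria libraries and 32.0, 19.1 and 19.2 FPKM in the vehicle libraries. Each mitochondria library was above all vehicle libraries, and replicate 1 was the highest of its group on both sides. The means were 53.3 ± 7.35 FPKM with mitochondria and 23.4 ± 7.41 FPKM with vehicle (SD, n = 3 each), and its rank among all genes was 833 with mitochondria and 1923 with vehicle. The log2 fold change was 1.25 ± 0.21 (edgeR adjusted p = 0.00944). It was 1.13 without mitochondria replicate 1 (edgeR adjusted p = 0.0113), and the call was lost without vehicle replicate 2 (1.12, edgeR adjusted p = 0.051) or vehicle replicate 3 (1.12, edgeR adjusted p = 0.054).

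The other enzymes with prostaglandin E synthase activity did not pass the test. Ptges2 encodes microsomal prostaglandin E synthase-2 and lies at chr2:32395896-32405772 on the plus strand. It had 6.10, 5.26 and 5.33 FPKM with mitochondria and 5.58, 6.05 and 6.26 FPKM with vehicle, with overlapping groups and a log2 fold change of -0.03 ± 0.11 (edgeR adjusted p = 0.880), or -0.10 without mitochondria replicate 1 (edgeR adjusted p = 0.508). Ptges3 encodes the cytosolic synthase, better known as the HSP90 co-chaperone p23, and lies at chr10:128058954-128077272 on the plus strand. It had 29.7, 33.4 and 33.0 FPKM with mitochondria and 33.6, 30.0 and 26.7 FPKM with vehicle, again with overlapping groups, and a log2 fold change of 0.16 ± 0.11 (edgeR adjusted p = 0.383). A processed copy of it on chromosome 6, Ptges3-ps, was listed at 66.0 ± 10.4 FPKM with mitochondria and 56.3 ± 1.25 FPKM with vehicle, above Ptges3 itself. How the counting divided reads between the gene and its copy is not stated, so the level of Ptges3 is uncertain.

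Among these 3 synthases, Ptges took 63.3%, 55.8% and 56.3% of the summed FPKM in the mitochondria libraries, against 45.0%, 34.6% and 36.8% in the vehicle libraries. The groups did not overlap, and the means of 58.5% ± 4.19 with mitochondria and 38.8% ± 5.45 with vehicle (SD, n = 3 each) differed by 19.7 percentage points. By these FPKM, Ptges was the leading transcript of the trio in every mitochondria library, while Ptges3 led in every vehicle library. Ptges3-ps, left out of this sum, held 2593 deposited counts in mitochondria replicate 2, beside 5202 for Ptges3. The uncertainty in the level of Ptges3 thus extends to this order and to the share. This share was set out as a description, without the offsets for GC content given below, and was not tested.

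**Figure D1:**
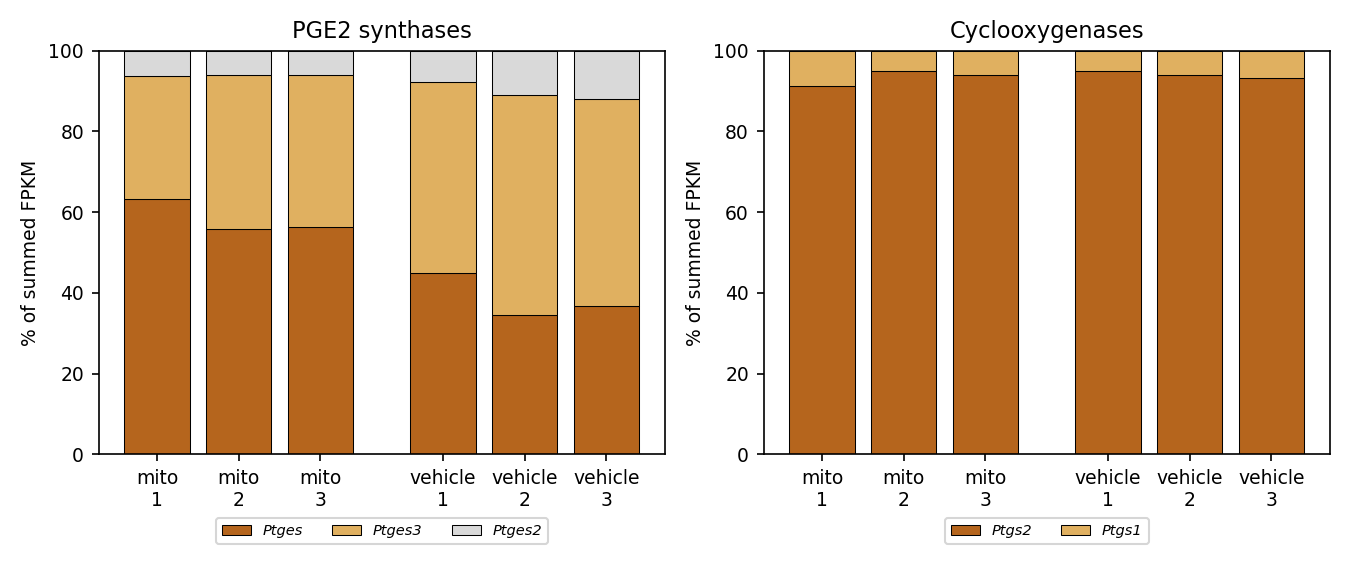
Stacked bars give the percentage of the summed FPKM taken by each gene in every library, for the 3 prostaglandin E2 synthases (left panel) and both cyclooxygenases (right panel), with mitochondria libraries left of vehicle libraries. Ptges holds 55.8% to 63.3% of the synthase total with mitochondria and 34.6% to 45.0% with vehicle, while Ptgs2 holds over 91% of the cyclooxygenase total in all libraries.

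Ptgis encodes prostacyclin synthase, which turns prostaglandin H2 into prostacyclin, and lies at chr2:167191805-167240604 on the minus strand. It had 52.1, 42.4 and 45.4 FPKM with mitochondria, against 40.3, 40.3 and 36.1 FPKM with vehicle. The groups did not overlap, but the gap between them was narrow, and the log2 fold change of 0.33 ± 0.10 missed the threshold (edgeR adjusted p = 0.0676). It passed with DESeq2 (adjusted p = 0.039) and with upper quartile scaling (edgeR adjusted p = 0.049), and was 0.15 with offsets for GC content (edgeR adjusted p = 0.187). It was the second most abundant member in vehicle libraries by mean FPKM, and stood behind Ptgs2 and Ptges in mitochondria libraries. Its 3′ end overlaps the non-coding gene 1110018N20Rik on the other strand by 721 bases, and since no source used here says that counting used strand, reads there cannot be assigned to either. That gene held 388 counts with mitochondria and 178 with vehicle, summed over 3 libraries each.

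Hpgd encodes 15-hydroxyprostaglandin dehydrogenase, the first enzyme of prostaglandin inactivation, and lies at chr8:56294585-56321043 on the plus strand. It had 0.495, 0.345 and 0.432 FPKM in the mitochondria libraries, against 1.18, 1.82 and 2.48 FPKM in the vehicle libraries. All 3 mitochondria libraries were below all vehicle libraries, which themselves spread widely around a low level. In deposited counts it had 61, 41 and 52 with mitochondria and 141, 219 and 299 with vehicle, so the values rest on few fragments. The log2 fold change was -2.03 ± 0.34 (edgeR adjusted p = 0.00944). It was -2.15 without mitochondria replicate 1 (edgeR adjusted p = 0.0098), and the call was lost without vehicle replicate 3 (-1.74, edgeR adjusted p = 0.0548).

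Both receptors are coupled to Gs and raise cAMP. Ptger4 encodes receptor EP4 and lies at chr15:5206661-5244172 on the minus strand. It had 0.526, 0.677 and 0.452 FPKM with mitochondria, against 0.757, 0.740 and 0.662 FPKM with vehicle, and the groups overlapped slightly. The log2 fold change was -0.31 ± 0.21 (edgeR adjusted p = 0.350). The protein-coding gene Ttc33 overlaps it on the other strand over 11676 bases and held 4658 counts with mitochondria and 4688 with vehicle, where Ptger4 had 214 to 318 counts per mitochondria library and 316 to 359 per vehicle library. Reads in the overlap cannot be told apart without strand, so the level of Ptger4 is uncertain.

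Ptger2 encodes receptor EP2 and lies at chr14:44988195-45003820 on the plus strand. It had 26, 3 and 21 deposited counts in the mitochondria libraries and 7, 22 and 6 in the vehicle libraries, near 12.5 and 8.75 fragments in all. Its log2 fold change of 0.57 ± 0.96 (edgeR adjusted p = 0.733) has an SE larger than itself, and no difference was detectable at this depth. It was 0.12 without mitochondria replicate 1 and up to 1.39, without vehicle replicate 2, when another library was left out. The antisense gene Gm17173 covers it whole and held more counts than Ptger2, 77 with mitochondria and 122 with vehicle. Ptger4 took 88.5%, 99.0% and 89.5% of the summed FPKM of both receptors with mitochondria and 97.7%, 92.8% and 97.8% with vehicle, in overlapping groups.

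**Figure D2:**
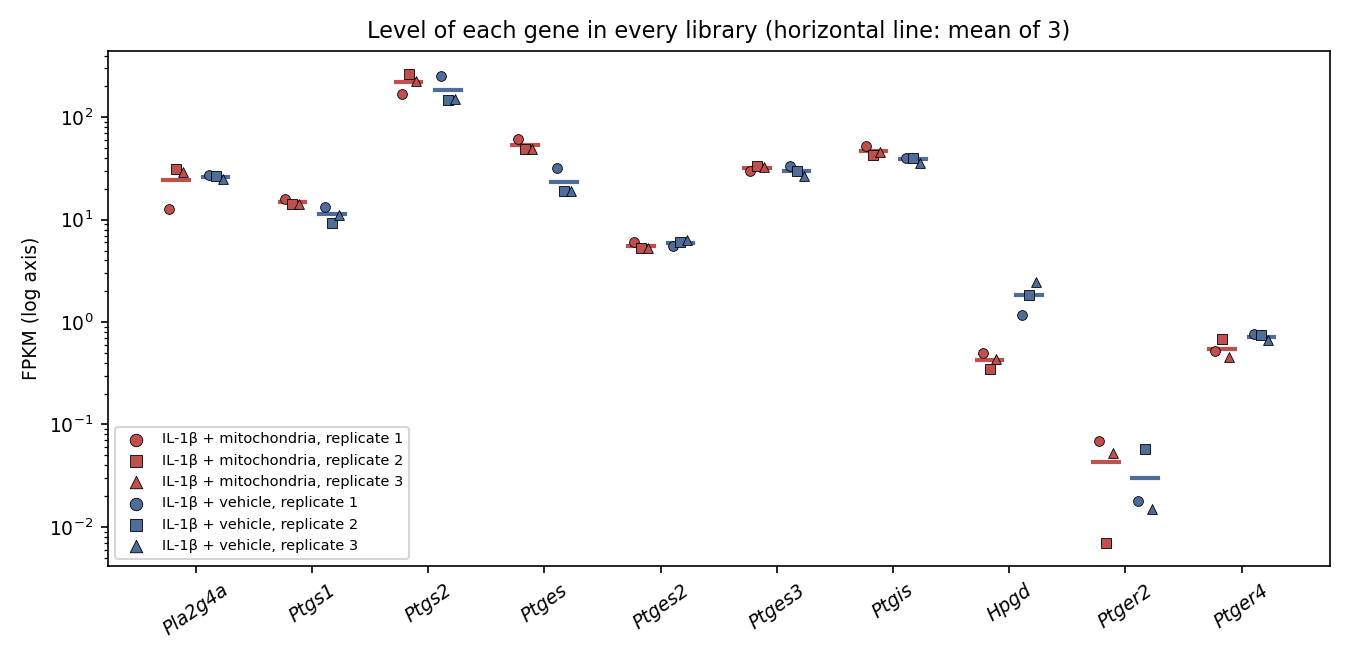
FPKM of each of the 10 genes in every library on a log axis, with mitochondria libraries in red left of vehicle libraries in blue, marker shapes for replicates and a horizontal line at the mean of 3. Ptges lies at 48.8 to 61.8 FPKM with mitochondria and 19.1 to 32.0 FPKM with vehicle, and Hpgd at 0.345 to 0.495 FPKM with mitochondria and 1.18 to 2.48 FPKM with vehicle, while the points of Ptgs2 overlap.

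By mean FPKM the order in mitochondria libraries was Ptgs2, Ptges, Ptgis, Ptges3, Pla2g4a, Ptgs1, Ptges2, Ptger4, Hpgd and Ptger2. In vehicle libraries it was Ptgs2, Ptgis, Ptges3, Pla2g4a, Ptges, Ptgs1, Ptges2, Hpgd, Ptger4 and Ptger2. Ptges thus stood at place 2 with mitochondria and at place 5 with vehicle. Neighbours with overlapping FPKM ranges were Ptges and Ptgis, Ptges3 and Pla2g4a, Pla2g4a and Ptgs1, and Ptger4 and Hpgd with mitochondria, and Ptges3 and Pla2g4a, and Pla2g4a and Ptges, with vehicle. All other neighbours were apart in every library, so Hpgd was above Ptger4 beyond the spread with vehicle but not below it beyond the spread with mitochondria. Library by library, Hpgd was below Ptger4 with mitochondria (0.495 and 0.526, 0.345 and 0.677, 0.432 and 0.452 FPKM), and Ptges was above Ptgis. Over all members, the FPKM of the groups did not overlap in 3 with higher values (Ptgs1, Ptges and Ptgis) and in 1 with lower values (Hpgd), where 15.1% of genes tested had higher and 25% had lower values without overlap, 40.1% in all. The plot of levels in every library shows these orders and overlaps.

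Fold changes in these libraries moved with the GC content of the transcript. When the genes tested were divided into 10 equal groups by GC content, the median log2 fold change ran from -0.57 in the lowest, at 28.3% to 41.3% GC, to 0.21 in the highest. Ptgs2, at 40.0% GC, and Hpgd, at 40.5%, fall in the lowest group, and Ptges, at 53.1%, in the seventh. With per-library GC offsets, the log2 fold change of Ptges was 1.15 (edgeR adjusted p = 0.00460) and that of Hpgd was -1.45 (edgeR adjusted p = 0.0288), so both calls stood. With these offsets Ptgs2 passed the test at 0.85 (edgeR adjusted p = 0.0187), and so did Ptges3 at 0.48 (edgeR adjusted p = 0.0192). Some members moved towards 0, Ptger4 to -0.02 (edgeR adjusted p = 0.970), Ptgis to 0.15 (edgeR adjusted p = 0.187) and Ptgs1 to 0.42 (edgeR adjusted p = 0.0514). Ptges2 and Ptger2 moved away from 0, to -0.17 (edgeR adjusted p = 0.202) and 0.85 (edgeR adjusted p = 0.606). Pla2g4a changed sign to 0.17 (edgeR adjusted p = 0.601). The call on Ptgs2 thus depends on whether GC content is taken into account. The shares of summed FPKM given above used no such offsets. Estimates of Ptges and Ptges3 were 1.25 and 0.16 without offsets and lay closer together with them. Those of Ptgs2 and Ptgs1 were 0.32 and 0.47 without offsets and changed order with them. Whether the trend is technical was not tested.

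**Figure D3:**
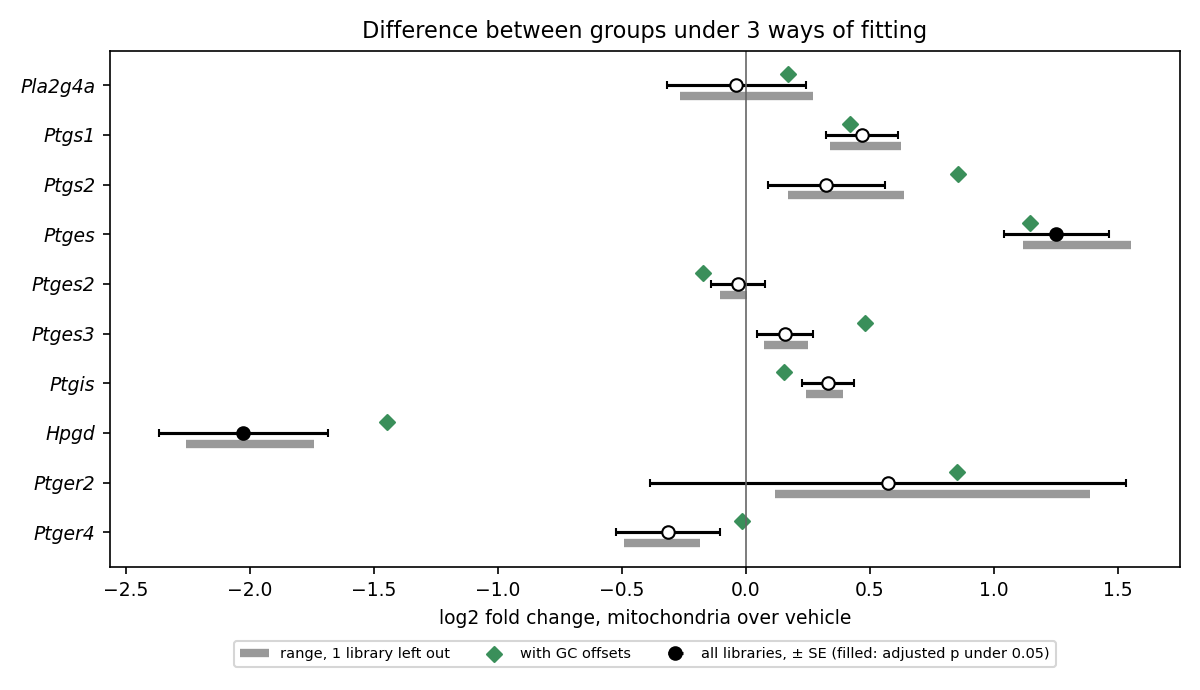
Log2 fold change of each gene, mitochondria over vehicle, from edgeR on all libraries (circles with ± SE, filled where the adjusted p is under 0.05), with GC offsets (green diamonds) and as the range when 1 library is left out (grey bars). Ptges stays between 1.12 and 1.55 and Hpgd between -2.26 and -1.74 in the grey bars, and Ptgs2 moves to 0.85 with GC offsets.

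The counts in the lists of genes below stand beside 6.36% of all genes tested called higher and 8.46% called lower. No list was tested as a set, and nothing is read from its number of calls. The first list holds enzymes and carriers that act on prostaglandins after their synthesis. Of 7 genes of transport and breakdown, all tested, 3 rose with mitochondria and 0 fell in edgeR (1 fell at an unadjusted p under 0.05, 0 with DESeq2 and 0 with limma), with a median log2 fold change of 0.12. Ptgr1, prostaglandin reductase 1, which reduces 15-keto prostaglandins and inactivates leukotriene B4, had 135.7, 124.3 and 123.6 FPKM with mitochondria, against 70.4, 49.9 and 42.5 FPKM with vehicle. Its log2 fold change was 1.30 ± 0.18 (edgeR adjusted p = 0.00508). Abcc4, the MRP4 transporter that exports prostaglandin E2, had 8.97, 9.30 and 8.62 FPKM with mitochondria, against 5.75, 4.37 and 3.90 FPKM with vehicle, a log2 fold change of 1.01 ± 0.15 (edgeR adjusted p = 0.00675). Both were called under all 17 alternatives, unlike Ptges and Hpgd. Cbr3, a carbonyl reductase, averaged 18.7 ± 1.81 FPKM with mitochondria and 11.4 ± 2.26 FPKM with vehicle (log2 fold change 0.78 ± 0.17, edgeR adjusted p = 0.0191). Its call was lost without mitochondria replicate 3 (edgeR adjusted p = 0.066), vehicle replicate 2 (0.081) or vehicle replicate 3 (0.076). Slco2a1, the prostaglandin uptake carrier, had 4.18 FPKM with mitochondria and 5.22 FPKM with vehicle and did not pass (log2 fold change -0.25, edgeR adjusted p = 0.151), a gene named after its value had been seen.

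Upstream of the cyclooxygenases, 2 of 8 other phospholipases A2 tested rose and 0 fell in edgeR (0 also at an unadjusted p under 0.05, with DESeq2 and with limma), with a median of 0.26. These were Pla2g12a, a secreted phospholipase, with 22.9 ± 2.08 FPKM with mitochondria and 15.7 ± 2.55 FPKM with vehicle (log2 fold change 0.61 ± 0.14, edgeR adjusted p = 0.0223), and Pla2g7. The product of Pla2g7 is platelet-activating factor acetylhydrolase, which does not supply arachidonate to cyclooxygenase in the classical pathway, and it averaged 1.86 ± 0.195 FPKM with mitochondria and 0.919 ± 0.219 FPKM with vehicle (log2 fold change 1.08 ± 0.23, edgeR adjusted p = 0.0190). Both calls were lost without mitochondria replicate 3, vehicle replicate 2 or vehicle replicate 3, with edgeR adjusted p from 0.059 to 0.101.

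Of 12 genes of arachidonate release, reacylation and binding, all tested, 3 fell and 0 rose in edgeR (1 rose at an unadjusted p under 0.05, 1 with DESeq2 and 0 with limma), with a median of -0.02. Acsl3 and Acsl4 are acyl-CoA synthetases that return fatty acids, in the case of Acsl4 preferentially arachidonate, to the membrane pool. Acsl4 had 4.43, 9.94 and 9.28 FPKM with mitochondria, against 16.2, 14.9 and 15.8 FPKM with vehicle (log2 fold change -0.92 ± 0.26, edgeR adjusted p = 0.0458). Mitochondria replicate 1 was the lowest, as for Pla2g4a. The call on Acsl4 was lost with GC offsets (-0.35, edgeR adjusted p = 0.093) and without mitochondria replicate 3 or any 1 vehicle library (edgeR adjusted p from 0.079 to 0.133). Acsl3 averaged 2.53 ± 0.326 FPKM with mitochondria and 4.51 ± 0.850 FPKM with vehicle (log2 fold change -0.76 ± 0.17, edgeR adjusted p = 0.0213), a call lost with GC offsets (-0.44, edgeR adjusted p = 0.062), without vehicle replicate 2 (0.096) or without vehicle replicate 3 (0.095). Anxa1, annexin A1, known as a glucocorticoid-induced inhibitor of phospholipase A2, averaged 136 ± 31.3 FPKM with mitochondria and 225 ± 22.2 FPKM with vehicle (log2 fold change -0.66 ± 0.16, edgeR adjusted p = 0.0304). That call was lost without mitochondria replicate 3 (0.066), vehicle replicate 2 (0.112) or vehicle replicate 3 (0.112).

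Among other prostanoid synthases, 0 of 5 tested of 7 listed passed in either direction in edgeR, with a median of 0.07. At an unadjusted p under 0.05 and with DESeq2 1 was higher, with limma 0, and 0 were lower by any of them. The most abundant by mean FPKM over all 6 libraries were Prxl2b, a prostaglandin F synthase, with 15.5 FPKM with mitochondria and 13.2 FPKM with vehicle, and Cbr1, which reduces prostaglandin E2 to prostaglandin F2α, with 12.9 ± 1.15 FPKM with mitochondria and 10.5 ± 0.634 FPKM with vehicle (log2 fold change 0.37 ± 0.11, edgeR adjusted p = 0.0611). The prostaglandin D synthases Ptgds and Hpgds, named after their values had been seen, were under 0.1 FPKM in every library and were not tested.

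Of 6 other prostanoid receptor genes tested, of 8 listed, 1 rose and 1 fell, with a median of -0.46. Ptgfr, the prostaglandin F2α receptor, had 1.96, 2.54 and 2.65 FPKM with mitochondria, against 3.75, 4.90 and 4.86 FPKM with vehicle (log2 fold change -0.85 ± 0.16, edgeR adjusted p = 0.0124). Its call was lost with GC offsets (-0.35, edgeR adjusted p = 0.065) and without vehicle replicate 2 or 3 (edgeR adjusted p = 0.065 each). Ptgfrn, a tetraspanin-associated membrane protein that inhibits ligand binding to that receptor, had 45.4, 40.3 and 40.6 FPKM with mitochondria, against 30.9, 23.4 and 24.4 FPKM with vehicle (log2 fold change 0.75 ± 0.12, edgeR adjusted p = 0.00887). Its call was lost without vehicle replicate 2 (0.052) or vehicle replicate 3 (0.057). The estimates of the receptor transcript and of its negative regulator thus had opposite signs. So did the medians of all genes tested in their GC groups, -0.57 for that of Ptgfr (40.7% GC) and 0.15 for that of Ptgfrn (54.4% GC). The reason for the opposite signs was not tested. The remaining receptors were scarce. Ptger1, the EP1 receptor, named after its value had been seen, averaged 0.294 ± 0.141 FPKM with mitochondria and 0.754 ± 0.302 FPKM with vehicle and did not pass (log2 fold change -1.26 ± 0.44, edgeR adjusted p = 0.0856).

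The lipoxygenase and leukotriene branch, which uses the same arachidonate, had 12 of 16 genes tested, of which 1 rose and 0 fell in edgeR (1 fell at an unadjusted p under 0.05, 1 with DESeq2 and 0 with limma), with a median of 0.36. The gene was Lta4h, leukotriene A4 hydrolase, with 14.6 ± 0.947 FPKM with mitochondria and 11.8 ± 0.724 FPKM with vehicle (log2 fold change 0.37 ± 0.10, edgeR adjusted p = 0.0365). Its call was lost without mitochondria replicate 2 or 3 or vehicle replicate 2 or 3 (edgeR adjusted p from 0.061 to 0.162). Alox12b and Alox15 were listed at 0 in all libraries. Alox5, Alox12, Aloxe3, Ltc4s, Ltb4r1, Ltb4r2, Cysltr1 and Cysltr2 were tested but lay under 1 FPKM in every library. The median of this list thus rests mostly on scarce transcripts.

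Genes that respond to cAMP, the second messenger of EP2 and EP4, did not move one way. Of 13, all tested, 1 rose and 3 fell, with a median of -0.11. Nr4a2, an orphan nuclear receptor induced by prostaglandin E2, had 1.95, 3.77 and 2.63 FPKM with mitochondria, against 5.94, 5.73 and 6.59 FPKM with vehicle (log2 fold change -1.06 ± 0.22, edgeR adjusted p = 0.0179). Its relative Nr4a1 averaged 4.74 ± 0.216 FPKM with mitochondria and 7.33 ± 0.824 FPKM with vehicle (log2 fold change -0.56 ± 0.12, edgeR adjusted p = 0.0192). Dusp1, a phosphatase that inactivates p38 MAP kinase and belongs also to the list of regulators of Ptgs2 and Ptges mRNA, averaged 37.6 ± 3.54 FPKM with mitochondria and 49.9 ± 3.27 FPKM with vehicle (log2 fold change -0.34 ± 0.10, edgeR adjusted p = 0.0496). Sik1, a kinase that restrains CREB coactivators, rose, with 4.66 ± 0.221 FPKM with mitochondria and 2.97 ± 0.527 FPKM with vehicle (log2 fold change 0.72 ± 0.15, edgeR adjusted p = 0.0179). The calls on Nr4a2 and Nr4a1 were lost without mitochondria replicate 3, vehicle replicate 2 or vehicle replicate 3 (edgeR adjusted p from 0.056 to 0.099), and that on Sik1 without vehicle replicate 2 or 3 (0.090 and 0.089). Dusp1 stayed past the threshold only when mitochondria replicate 1 was left out, with edgeR adjusted p up to 0.198 otherwise.

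Among 15 genes of EP2 and EP4 coupling, all tested, 1 rose and 0 fell in edgeR (1 fell at an unadjusted p under 0.05, 1 with DESeq2 and 1 with limma), with a median of 0.04. The gene was Arrb1, β-arrestin 1, with 4.80 ± 0.267 FPKM with mitochondria and 3.60 ± 0.528 FPKM with vehicle (log2 fold change 0.48 ± 0.13, edgeR adjusted p = 0.0381). That call held in 1 of 6 fits with a library left out, the one without vehicle replicate 1, and edgeR adjusted p ran up to 0.162 in the others. Gnas, which encodes the Gs α subunit, had 105 FPKM with mitochondria and 101 FPKM with vehicle and did not pass (edgeR adjusted p = 0.302).

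Of 12 regulators of Ptgs2 and Ptges mRNA, all tested, Dusp1 fell and 0 rose in edgeR (2 rose at an unadjusted p under 0.05, 0 with DESeq2 and 0 with limma), with a median of 0.00. Cebpb, the C/EBPβ factor that acts on the Ptgs2 promoter, had 102 FPKM with mitochondria and 85.5 FPKM with vehicle and did not pass (log2 fold change 0.32, edgeR adjusted p = 0.0952). Mapkapk2, the p38-activated kinase that stabilises Ptgs2 mRNA, had 99.6 FPKM with mitochondria and 97.2 FPKM with vehicle (edgeR adjusted p = 0.496). Egr1, a factor known to drive Ptges through GC-rich promoter elements and named after its value had been seen, had 13.6 ± 0.933 FPKM with mitochondria and 15.0 ± 3.60 FPKM with vehicle (log2 fold change -0.07, edgeR adjusted p = 0.823).

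**Figure D4:**
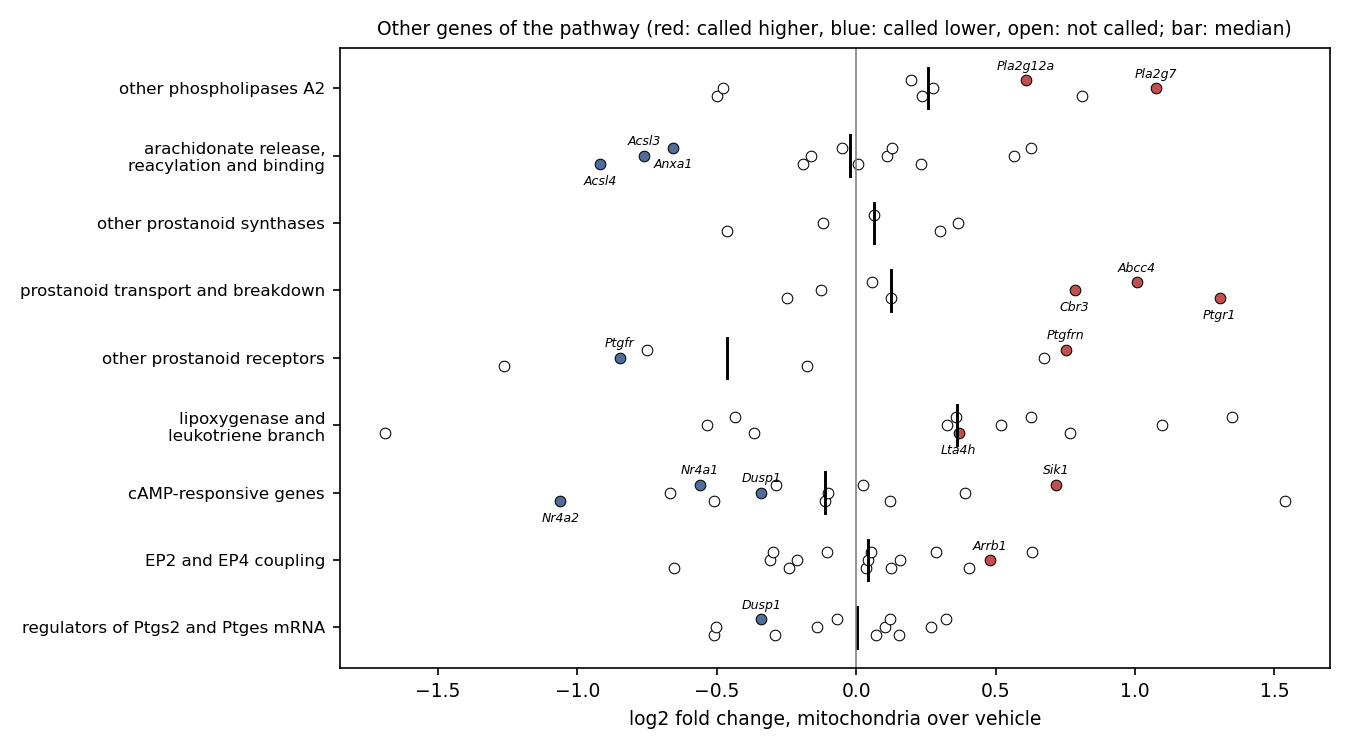
Each point is the log2 fold change, mitochondria over vehicle, of 1 tested gene in a list of the pathway other than the 10 genes above, red where called higher, blue where called lower and open where not called, with a black bar at the median. The called genes are named: Ptgr1 reaches 1.30 and Abcc4 1.01 in transport and breakdown, and Nr4a2 reaches -1.06 among cAMP-responsive genes.

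The labelled cell type was set beside 12 chondrocyte markers, all of them detected and tested, of which 2 rose (Sox9 and Acan) and 2 fell (Col11a1 and Hapln1). Several were scarce. Acan averaged 2.59 FPKM with mitochondria and 1.87 FPKM with vehicle, Matn3 0.163 and 0.337 FPKM, and Chad 0.287 and 0.210 FPKM. Comp averaged 30.4 and 31.9 FPKM, and Col2a1, given below, was higher still. Matn3, Chad and Comp are named after their values had been seen. The call on Acan was lost in each of the 6 fits with 1 library left out (edgeR adjusted p from 0.0527 to 0.162), and that on Sox9 without mitochondria replicate 2 or 3 or vehicle replicate 2 or 3 (0.0583 to 0.121). The call on Hapln1 was lost without vehicle replicate 2 or 3 (0.0510 and 0.0518), while that on Col11a1 held in all 6. The summed level of the chondrocyte markers was 185 to 218 FPKM with mitochondria and 222 to 262 FPKM with vehicle, without overlap. Their median log2 fold change was -0.02, and the sum leaned on few genes. Col2a1 averaged 96.0 FPKM with mitochondria and 112 FPKM with vehicle, in overlapping groups, and was not called. Col11a1 averaged 22.3 FPKM with mitochondria and 44.9 FPKM with vehicle. Synovial fibroblast markers summed to 255 to 257 FPKM with mitochondria and 242 to 288 FPKM with vehicle. This was above the chondrocyte sum in every library but vehicle replicate 3. Pdpn (127 FPKM with mitochondria, 92.4 FPKM with vehicle) and Prg4 (76.5 and 97.8 FPKM) made up most of it and were not called. Of 8 markers, 1 was higher (Cd34) and 3 were lower (Dpp4, Pdgfra and Thy1). Of these, Dpp4 held with any library left out, and the others were lost without vehicle replicate 2 or 3 (edgeR adjusted p from 0.0550 to 0.114), Cd34 also without mitochondria replicate 2 or 3 (0.0538 and 0.0643). Macrophage markers, which include sources of cyclooxygenase products, summed to 39.9 to 49.1 FPKM with mitochondria and 43.3 to 53.1 FPKM with vehicle, with 0 of 11 tested called in either direction in edgeR. At an unadjusted p under 0.05, 1 macrophage marker was higher and 2 were lower, with DESeq2 1 and 1, and with limma 1 and 0. Mast cell and granulocyte markers summed to 2.50 to 7.81 FPKM with mitochondria and 9.35 to 12.2 FPKM with vehicle, with 0 of 4 tested called in edgeR, DESeq2 or limma and 1 lower at an unadjusted p under 0.05, and the mast cell marker Ms4a2 was at 0 in all libraries. Most of that sum was S100a9 (2.67 FPKM with mitochondria, 6.14 FPKM with vehicle) and S100a8 (2.07 and 3.39 FPKM). For S100a8 the groups overlapped. Endothelial markers summed to under 1 FPKM in every library, with 0 of 5 tested called by any of these and Tie1 at 0 throughout. Of 6 osteocyte markers listed, 2 were tested. Osteocyte markers summed to 43.3 to 47.2 FPKM with mitochondria and 19.6 to 29.5 FPKM with vehicle. Nearly all of it was Phospho1, a phosphatase of mineralising cells that rose with mitochondria (log2 fold change 0.98, edgeR adjusted p = 0.00791, and 0.0503 without vehicle replicate 2). Chondrocyte, granulocyte and osteocyte marker sums thus differed between the groups as Ptges and Hpgd did, though the chondrocyte markers did not move one way gene by gene. The granulocyte and osteocyte sums rested mostly on S100a9, S100a8 and Phospho1, so they do not show a difference in the amount of those cells. The part of these cell types in the results on Ptges and Hpgd was not tested.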

How the data were processed

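Poly(A) RNA from 6 libraries of mouse chondrocytes was sequenced as paired ends, per the labels' protocols. The deposited table holds FPKM that the authors scaled to transcript length and library depth, and estimated counts deposited as whole numbers, not normalised. Per the submitters' processing notes, HISAT2 2.0, StringTie 1.3.0 and Bowtie 0.12.2 were used with build mm8, and no step is assigned to them. The coordinates in the table are of GRCm38: 28732 of 28812 gene identifiers were found in GENCODE M21, and 25914 (90.2% of those) had the same start and end. Strandedness of the counting is not given in the sources used here. Low counts piled up at 4, with 2.31 to 2.84 times the number of genes at the neighbouring values, so 1 fragment was taken as about 4 counts.

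Counts were fitted over all genes in edgeR 4.0.16 (R 4.3.3) with TMM scaling, filterByExpr (minimum count 10), no term but group, a two-sided quasi-likelihood test and Benjamini-Hochberg adjustment over 17290 genes, with a threshold of 0.05. The SE was derived from the F statistic and is no measure separate from the p-value. The alternatives used other scalings, no filter, DESeq2 1.42.0, limma 3.58.1 on log2(FPKM + 1) and log2(FPKM + 0.1), counts divided by 4, GC offsets (natural spline, 5 degrees of freedom, longest GENCODE transcript), a replicate block, and 1 library left out at a time. The fits were tested on simulated data. Beyond the 10 members, the text names genes of each list past the threshold, up to 6 in order of adjusted p. It names some, not all, of the 2 genes of highest mean FPKM in a list and of the genes overlapping a member. Members and lists were chosen with earlier results of these data known. Promoters are from RefSeq on GRCm38.p6, where 9 of 10 members, all but Ptgis, matched by symbol.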

Additional observations from a re-analysis of the deposited data

How the results depend on the processing

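The members called higher numbered 3 with upper quartile scaling, 3 with DESeq2, 3 with GC offsets, 2 with counts divided by 4 and 0 with limma on log2(FPKM + 1) without a filter (beside 8.42%, 10.1%, 10.2%, 8.7% and 0.618% of all genes), and 0 to 2 with 1 library left out. The members called lower numbered 0 with that limma fit (beside 1.16% of all genes) and 0 to 1 with 1 library left out (beside 1.73% to 9.39%). With 1 library left out, 0.727% to 6.02% of all genes were called higher. Over all genes, 1099 were called higher and 1463 lower. These counts were 357 and 507 with no filter, 161 and 301 with limma without a filter, and 810 and 1724 when scaled by library size alone. With GC offsets 1755 were called higher. With 1 library left out, 130 to 1086 were called higher and 310 to 1694 lower. The fits furthest from the full one were those without vehicle replicate 2 (130 higher), vehicle replicate 3 (132 higher) and mitochondria replicate 3 (398 higher). The replicate numbers were not taken as pairs: same-number libraries correlated at 0.0837, 0.0272 and 0.0237 after group means were removed, other pairs at -0.0684 to 0.0567. With the replicate block 2 members were called higher, Ptgs1 joining Ptges (edgeR adjusted p = 0.046), and 898 genes higher and 1386 lower in all.

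Signs changed where estimates were small or 1 library decided them. With upper quartile scaling Pla2g4a was 0.012, Ptges2 0.030 and Lpcat3 0.011. With GC offsets Pla2g4a was 0.17, Ereg 0.27, Gnas -0.063, Mapkapk2 -0.085 and Prkar1a 0.064. With 1 library left out, Pla2g4a ran from -0.26 to 0.27 (without mitochondria replicate 1), Ptges2 from -0.10 to 0.0040 (above 0 without mitochondria replicate 2 or 3 or vehicle replicate 3), Ereg from -0.51 to 0.0044, Ptges from 1.12 to 1.55 and Hpgd from -2.26 to -1.74. The cause of these shifts was not tested. Depth limits Ptger2 most, then Hpgd.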
